A study of Mus musculus with 24 samples.

Results

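The genes followed here carry chloride, bicarbonate and water across the epithelium of the bile duct. They were taken as the rows with the symbols Sctr, Cftr, Ano1, Slc4a2, Slc4a4, Slc12a2, Atp1b1, Aqp1 and Aqp5, which is 9 genes out of 31053 in the table of hepatocyte cultures and 25876 in the table of cholangiocyte organoids. In the Smart-Seq table of 20729 genes 8 of them had a row, and Sctr was not analysed there.

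The study grew organoids, bodies of epithelial cells in Matrigel, from wild-type adult BALB/c mice. Hepatocytes (Pri-Hep) were enriched on a Percoll gradient and by removing EpCAM-positive cells, and the hepatocyte organoids (Hep-Orgs) of the bulk libraries were grown in the medium Hep-Med with the Notch signalling inhibitor DAPT and the glucocorticoid dexamethasone. Cholangiocyte organoids (Cho-Orgs) came from cells held on EpCAM beads, in a medium that contained forskolin, an activator of adenylyl cyclase, and neither DAPT nor dexamethasone. There were 3 libraries in each bulk group, which were Pri-Hep, Cho-Orgs of the passages P0, P5 and P10, and Hep-Orgs of the passages P1, P5 and P10. The Smart-Seq libraries, 1 for each shape, were made from P0 Hep-Orgs picked as round-like, intermediate or grape-like. The study describes these shapes in Hep-Med, before it added DAPT and dexamethasone to that medium. No group carried a transgene or a deletion. Values are FPKM, fragments scaled to gene length and to library size. Levels may therefore be compared between genes of a table, while the 3 tables were scaled separately and are only set side by side.

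In the bile duct the hormone secretin acts through its receptor Sctr to raise cyclic AMP, which opens the apical chloride channel Cftr, while the chloride channel Ano1 opens on calcium. The exchanger Slc4a2 trades the chloride for bicarbonate, and water follows the salt through aquaporins. On the basal side Slc4a4 brings in bicarbonate with sodium, Slc12a2 brings in chloride with sodium and potassium, and the sodium pump, with Atp1b1 as a beta subunit, keeps the sodium gradient.

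The promoters of 3 members are shown because these genes stood for the patterns met in Cho-Orgs, where Cftr fell, Aqp1 rose and Atp1b1 kept within a narrow range. Each run is the 250 bases before the start in RefSeq on build GRCm38.p6, written 5′ to 3′ on the strand of the gene. The run of Cftr lies at chr6:18170437-18170686 on the plus strand, that of Aqp1 at chr6:55336049-55336298 on the plus strand and that of Atp1b1 at chr1:164458356-164458605 on the minus strand. None of them overlaps an exon of GENCODE M21. Capitals mark the GC box GGGCGG or its reverse complement CCGCCC.
Cftr: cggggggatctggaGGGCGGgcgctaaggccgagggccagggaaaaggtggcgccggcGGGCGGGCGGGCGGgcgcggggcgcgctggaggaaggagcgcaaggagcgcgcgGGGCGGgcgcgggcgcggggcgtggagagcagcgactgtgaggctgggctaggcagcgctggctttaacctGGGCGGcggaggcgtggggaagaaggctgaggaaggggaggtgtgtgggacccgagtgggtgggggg
Aqp1: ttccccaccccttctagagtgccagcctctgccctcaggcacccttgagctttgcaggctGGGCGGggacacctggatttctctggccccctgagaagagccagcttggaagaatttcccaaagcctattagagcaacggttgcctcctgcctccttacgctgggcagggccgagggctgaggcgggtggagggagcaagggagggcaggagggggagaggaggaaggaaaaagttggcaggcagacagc
Atp1b1: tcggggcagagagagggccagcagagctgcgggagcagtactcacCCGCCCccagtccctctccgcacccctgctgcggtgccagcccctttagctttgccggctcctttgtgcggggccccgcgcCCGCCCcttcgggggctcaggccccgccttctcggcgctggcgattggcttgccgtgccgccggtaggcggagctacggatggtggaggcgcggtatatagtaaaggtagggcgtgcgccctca
The run of Cftr holds 6 GC boxes, 3 of which overlap, that of Atp1b1 holds 2 and that of Aqp1 holds 1, and 32.7% of 32851 mouse promoter runs of this length hold at least 1. The G and C content is 76.4% for Cftr, 70.4% for Atp1b1 and 62% for Aqp1, beside a median of 52.4%. Promoters of 7 members were matched, without Sctr and Slc12a2. The letters TGACG on either strand, which are part of the cyclic AMP response element TGACGTCA, are in 17.8% of all runs and the full element is in 1.55%, and neither is in the runs of the matched members. All 9 members are protein-coding genes, and on GRCm38 Cftr spans chr6:18170687-18322768, Aqp1 chr6:55336432-55348555, Atp1b1 chr1:164437109-164458355, Ano1 chr7:144588549-144751974, Aqp5 chr15:99590782-99594829, Slc4a2 chr5:24423837-24440950, Slc4a4 chr5:88886818-89239653 and Sctr chr1:120006894-120063536.

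The depth was 14068906 to 27160365 fragments per library in the hepatocyte table, about 37330000 to 40190000 in the Cho-Orgs table and about 39910000 to 40340000 in the Smart-Seq table. The libraries labelled Pri-Hep held markers of hepatocytes and of bile duct cells, and some of these went against the label. Krt19, a keratin of bile duct cells, was at 229 to 241 FPKM and Epcam at 265 to 275 in these libraries. Alb, serum albumin, was at 106 to 121 there and Cyp2e1, an enzyme of mature hepatocytes, at no more than 0.030. The 10 hepatocyte markers summed to 609 to 643 FPKM in Pri-Hep. Of these, 8 had a mean of at least 1 FPKM, and Ttr was the highest at a mean of 419. Hep-Orgs were alike, with the 10 hepatocyte markers at a sum of 622 to 671 FPKM and Cyp2e1 at 0 in P1, P5 and P10. The 10 cholangiocyte markers summed to 1159 to 1171 FPKM in Pri-Hep and to 1150 to 1192 in Hep-Orgs. In Cho-Orgs the same markers summed to 2216 to 2428 FPKM at P0 and 3196 to 3230 at P10, and the 10 hepatocyte markers to 7217 to 8169 at P0, 204 to 249.6 at P5 and 77.8 to 83.3 at P10.

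The first comparison asked how the members changed as Cho-Orgs were passaged. Cftr was nearly gone at P10, while Ano1, Slc12a2 and Aqp1 were at their highest there. Aqp5 peaked at P5, and the bicarbonate transporters and Atp1b1 moved little. Of the 9 members 8 passed the filter on low values (3 or more libraries with an FPKM of 1 or more), and each of these 8 was above it in all 9 libraries.

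In limma with Benjamini-Hochberg adjustment over 11593 genes, 5 of 8 members changed from P0 to P5, 4 higher and 1 lower, where 56.6% of all genes changed, 34% higher and 22.6% lower. From P5 to P10 5 of 8 changed, 3 higher and 2 lower, beside 61.5% of all genes, 31% and 30.5%. From P0 to P10 6 of 8 changed, 5 higher and 1 lower, beside 72.3%, 41% and 31.3%. These shares lie near the background and are no result about the members. Of all genes that changed from P0 to P5, 60.04% were higher as deposited and 47.1% with median-ratio size factors.

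By size, a called log2 fold change of at least 1 was met by 2, 3 and 4 of the 8 members in the 3 comparisons, beside 7.67%, 8.2% and 15.8% of all genes. The median absolute log2 fold change of the members was 0.29, 0.61 and 0.90, beside 0.24, 0.27 and 0.37. Between the later and the earlier interval 5 of 8 members differed, 2 higher and 3 lower, where 48.7% of all genes did, 20.9% higher and 27.8% lower. In bulk libraries fewer cells of a type and less RNA per cell cannot be told apart. By the study's figure captions the library numbers mark mice, while its methods name independent cell cultures as the replicates. The same numbers recur in every passage. With the number as a replicate block 7 of 8 members were called from P0 to P10, and Slc4a4 was the one added. In that setting 8278 of 11593 genes were called.

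**Figure D1:**
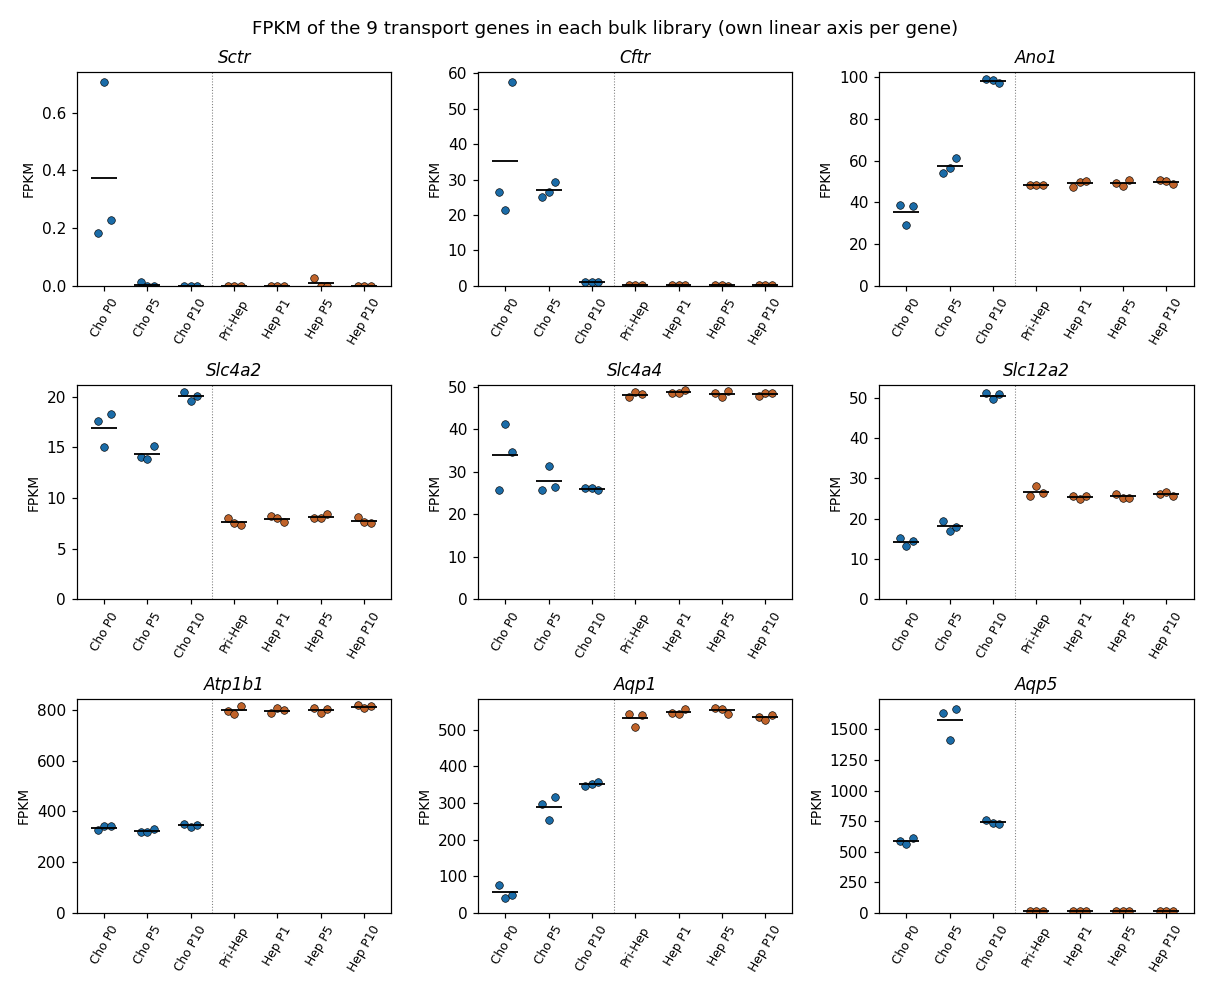
FPKM of each member, on its own linear axis from 0, in every bulk library of Cho-Orgs (blue) and of the hepatocyte table (orange), with points for libraries and lines for group means. Cftr is near 0 in Cho-Orgs P10 and in the hepatocyte table, Aqp5 peaks in Cho-Orgs P5, and the tables were scaled separately.

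Sctr, the secretin receptor, was low in Cho-Orgs P0 and at or close to 0 in all other bulk libraries. In Cho-Orgs P0 it was at 0.183, 0.706 and 0.229 FPKM, which is about 14.6, 57.1 and 18 fragments. At P5 the values were 0.0124, 0 and 0, and at P10 all 3 libraries were at 0. All P0 libraries were above all later ones, with replicate 2 the highest.

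Against a floor of 3 fragments per library, Sctr was at least 9.33-fold lower at P10 than at P0. That bound rests on P0 replicate 2, and without this library it was 5.15-fold. Sctr did not pass the filter on low values. Fitted in limma without that filter, its log2 fold change was -0.43 at P5 (SE 0.12, adjusted p = 0.0293) and -0.44 at P10 (SE 0.12, adjusted p = 0.0207), on a log2(FPKM + 1) scale that understates the change of so low a gene. Without P0 replicate 2 the values were -0.26 (SE 0.0161, adjusted p = 8.70e-05) at P5 and -0.27 (SE 0.0161, adjusted p = 3.43e-05) at P10.

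Cftr, the chloride channel opened by cyclic AMP, had the largest fold change of the members tested from P0 to P10. It was at 26.3, 21.5 and 57.5 in P0, at 25, 26.5 and 29.2 in P5 and at 1.02, 1.03 and 1.06 in P10 (FPKM). The P0 and P5 libraries overlapped, with replicate 3 of P0 well above the rest, and every P10 library was below every earlier one. In fragments the P10 libraries held about 301, 298 and 310.

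The log2 fold change of Cftr was -3.78 from P5 to P10 (SE 0.28, adjusted p = 3.40e-06) and -4.02 from P0 to P10 (SE 0.28, adjusted p = 8.01e-07). From P0 to P5 it was -0.24 (SE 0.28, adjusted p = 0.475), and without P0 replicate 3 it was 0.17 with an adjusted p of 0.159, in a range of 0.095 to 0.604 over the alternatives, so no direction is given for that interval. The later change minus the earlier one was -3.53 (SE 0.48, adjusted p = 0.000291).

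Ano1, the calcium-activated chloride channel, went the other way. It was at 38.9, 29.3 and 38.5 in P0, at 54.2, 56.6 and 61.2 in P5 and at 99.1, 98.5 and 97.4 in P10 (FPKM). The groups did not overlap and each later one was higher. The log2 fold change was 0.68 from P0 to P5 (SE 0.10, adjusted p = 0.000269), 0.77 from P5 to P10 (SE 0.10, adjusted p = 0.000105) and 1.45 from P0 to P10 (SE 0.10, adjusted p = 6.63e-07). The difference between the 2 intervals was 0.09 (SE 0.17, adjusted p = 0.696), which did not pass the test. The genes with the profile most like that of Ano1 were Hspa1b, Slc35e4 and Sts, at root mean square distances of 0.09 each on the centred log2 scale.

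Within a library the ratio of Ano1 to Cftr was 1.48, 1.36 and 0.669 in P0, 2.17, 2.13 and 2.09 in P5 and 97.3, 95.8 and 92.1 in P10. The apical chloride channels were thus at similar levels at P0, and Ano1 was far above Cftr in every P10 library.

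The fall of Cftr from P5 to P10 went with a fall of proliferation genes. These genes also fell from P0 to P5, where no direction is given for Cftr. All 10 on the list fell in each of the 3 comparisons. Of all genes 22.6% fell from P0 to P5, 30.5% from P5 to P10 and 31.3% from P0 to P10. The 10 proliferation genes summed to 299.8 to 451 FPKM at P0, 176 to 191 at P5 and 23 to 25.8 at P10. Mki67, a marker of cycling cells, was at 37.3 ± 7.47 FPKM (SD, n = 3) in P0, 15.8 ± 0.582 in P5 and 1.27 ± 0.0318 in P10. Their part in the fall of Cftr was not tested. The genes with the profile most like that of Cftr over the 9 Cho-Orgs libraries were AA467197, Ube2c and Ccnb2, at distances of 0.38, 0.44 and 0.47.

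**Figure D2:**
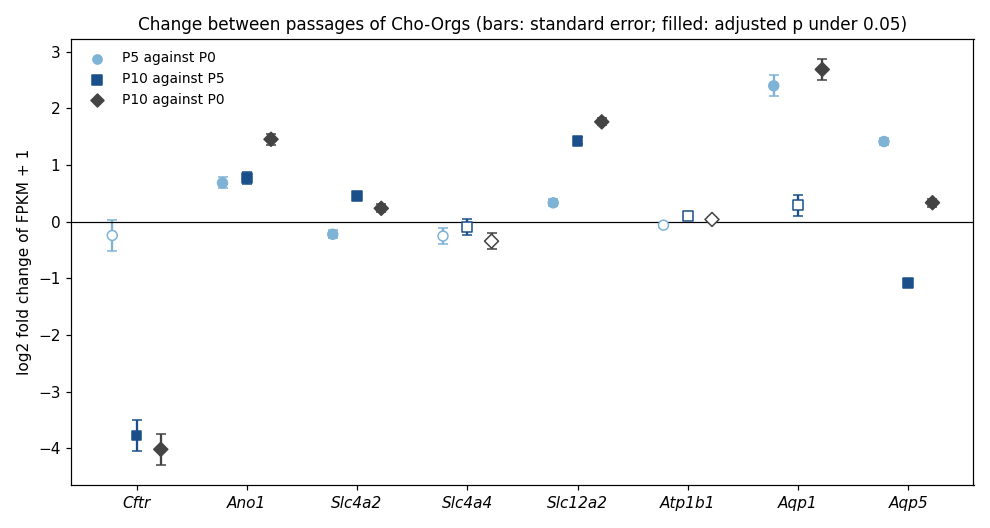
Log2 fold change of FPKM + 1 for the 8 members tested between passages of Cho-Orgs, with standard errors from limma over 9 libraries, where filled marks passed an adjusted p of 0.05. From P0 to P10 Cftr lies at -4.02, and Aqp1, Slc12a2 and Ano1 lie at 2.68, 1.76 and 1.45.

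The bicarbonate transporters moved far less. Slc4a2, the chloride-bicarbonate exchanger, was at 17.6, 15 and 18.3 in P0, at 14.1, 13.8 and 15.1 in P5 and at 20.5, 19.6 and 20.1 in P10 (FPKM). The P10 libraries were above all others, while P0 and P5 overlapped. It rose by 0.46 from P5 to P10 on the log2 scale (SE 0.07, adjusted p = 0.000376), and the later change minus the earlier one was 0.68 (SE 0.12, adjusted p = 0.00151).

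The other steps of Slc4a2 were less firm. From P0 to P5 its log2 fold change was -0.22 (SE 0.07, adjusted p = 0.0222), and the adjusted p went from 0.00109 to 0.155 over the alternatives, with the highest value without replicate 1. From P0 to P10 it was 0.23 (SE 0.07, adjusted p = 0.0136), with a range of 0.00687 to 0.0673 and the highest value with median-ratio size factors.

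Slc4a4, the sodium-bicarbonate cotransporter, was at 25.7, 41.3 and 34.7 in P0, at 25.6, 31.5 and 26.5 in P5 and at 26.1, 26.2 and 25.7 in P10 (FPKM). All groups overlapped, and the P0 libraries were spread most. The log2 fold change was -0.26 from P0 to P5 (SE 0.14, adjusted p = 0.153) and -0.34 from P0 to P10 (SE 0.14, adjusted p = 0.0519). With the replicate block the adjusted p of the latter was 0.0229.

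P0 replicate 1, the lowest of its group for Slc4a4, decided these values. Without it the log2 fold change was -0.44 from P0 to P5 (adjusted p = 0.00324, range 0.00324 to 0.502 over the alternatives) and -0.53 from P0 to P10 (adjusted p = 0.000673, range 0.000673 to 0.259). The ratio of Slc4a4 to Slc4a2 was 2.04 ± 0.652 (SD, n = 3) in P0, 1.95 ± 0.284 in P5 and 1.3 ± 0.0355 in P10.

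Slc12a2, the basal chloride loader, was at 15.2, 13.2 and 14.4 in P0, at 19.5, 17.1 and 18 in P5 and at 51.2, 49.7 and 50.9 in P10 (FPKM). The groups did not overlap, and the P10 libraries stood far above the rest. It rose by 0.33 from P0 to P5 on the log2 scale (SE 0.06, adjusted p = 0.00163) and by 1.43 from P5 to P10 (SE 0.06, adjusted p = 1.68e-07), and the later step was larger by 1.10 (SE 0.11, adjusted p = 4.59e-05). Its ratio to Atp1b1 was 0.0425 ± 0.00395 (SD, n = 3) in P0, 0.0565 ± 0.00375 in P5 and 0.147 ± 0.000621 in P10. The profiles most like that of Slc12a2 were those of Tnfaip2, 2410002F23Rik and Ppp1r15a, at distances of 0.04, 0.06 and 0.06.

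Atp1b1, the sodium pump subunit, was at 326, 340.2 and 341 in P0, at 319.9, 316 and 328 in P5 and at 349.9, 339 and 345 in P10 (FPKM). The values spanned 316 to 349.9 over the 9 libraries, P0 overlapped both later groups, and P5 lay below P10. Between P0 and P10 the log2 fold change was 0.04 (SE 0.04, adjusted p = 0.431) as deposited and -0.04 with median-ratio size factors, so no direction is given. From P5 to P10 it was 0.10 (SE 0.04, adjusted p = 0.0585), with adjusted p-values of 0.0158 to 0.182 over the alternatives, the lowest in a fit of those 2 groups alone.

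The aquaporins followed different courses. Aqp1, a water channel of bile duct cells and of endothelium, was at 76.4, 41.3 and 49.5 in P0, at 298, 253 and 317 in P5 and at 347, 351 and 358 in P10 (FPKM). The groups did not overlap, and the widest gap lay between P0 and P5. The log2 fold change was 2.40 from P0 to P5 (SE 0.18, adjusted p = 4.37e-06) and 0.29 from P5 to P10 (SE 0.18, adjusted p = 0.195), and the later change minus the earlier one was -2.11 (SE 0.32, adjusted p = 0.000494). Fitted on the P5 and P10 libraries alone, the adjusted p of the step from P5 to P10 was 0.00543, in a range of 0.00543 to 0.383 over the alternatives.

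The rise of Aqp1 went with a fall of hepatocyte markers, of which 8 of 9 tested fell from P0 to P5, beside 22.6% of all genes. Alb was at 4994 ± 406 FPKM (SD, n = 3) in P0, 79.5 ± 12.4 in P5 and 0.584 ± 0.0579 in P10. Their part in the rise of Aqp1 was not tested. The 10 markers of sinusoidal endothelium summed to 1.66 to 1.91 FPKM in P0, 1.64 to 2.03 in P5 and 0.724 to 0.994 in P10, with Pecam1 at no more than 0.0556 in a library. The profiles most like that of Aqp1 were those of Tgm1, Slc7a11 and Tigit, at distances of 0.22, 0.23 and 0.27.

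Aqp5, a water channel of secretory glands, was at 590.0, 561 and 615 in P0, at 1637, 1414 and 1667 in P5 and at 762, 738 and 725 in P10 (FPKM). The groups did not overlap, and P5 was above both others. Aqp5 rose by 1.41 from P0 to P5 on the log2 scale (SE 0.07, adjusted p = 2.01e-07) and fell by 1.08 from P5 to P10 (SE 0.07, adjusted p = 1.18e-06), and was higher at P10 than at P0 by 0.33 (SE 0.07, adjusted p = 0.00137). The later change minus the earlier one was -2.49 (SE 0.12, adjusted p = 5.65e-07). Aqp5 ranked 20 to 26 of 25876 genes in the P5 libraries. The profiles most like it were those of Akap5, Tdpoz8 and Otop1, at distances of 0.10, 0.12 and 0.12.

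The ratio of Aqp5 to Aqp1 within a library was 7.72, 13.6 and 12.4 in P0, 5.49, 5.58 and 5.26 in P5 and 2.19, 2.1 and 2.03 in P10. It was lower at each later passage with no overlap, although Aqp5 itself peaked at P5.

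**Figure D3:**
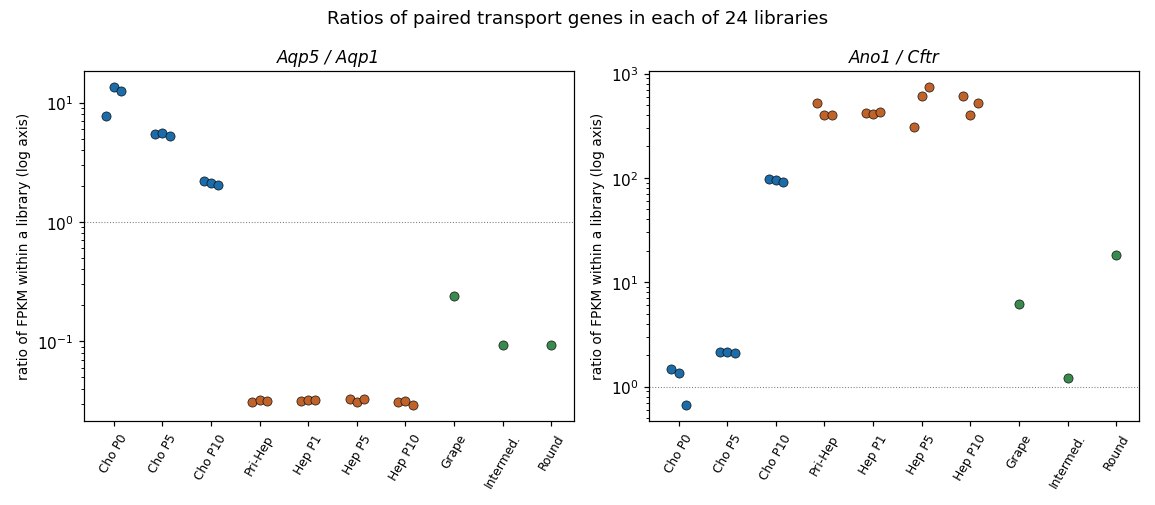
Ratio of Aqp5 to Aqp1 and of Ano1 to Cftr within each of the 24 libraries, on log axes with 1 point per library, for Cho-Orgs, the hepatocyte table and the Smart-Seq libraries. Aqp5 exceeds Aqp1 in all 9 Cho-Orgs libraries and in no other library, and the mean ratio of Ano1 to Cftr in Cho-Orgs P10 is 95.

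The order of the FPKM levels shifted with passage. At P0 it ran Aqp5, Atp1b1, Aqp1, then Ano1, Cftr and Slc4a4, whose neighbouring ranges overlapped, then Slc4a2 and Slc12a2, which also overlapped, and Sctr. At P5 Atp1b1 overlapped with Aqp1 and Slc4a4 with Cftr. At P10 it ran Aqp5, then Aqp1 and Atp1b1, which overlapped, then Ano1, Slc12a2, Slc4a4, Slc4a2, Cftr and Sctr, each apart from the next.

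Other genes of the secretory pathway were taken from a list of 123 in 11 roles, of which 65 were tested in Cho-Orgs. From P0 to P10 20 rose and 28 fell, which is 73.8% beside 72.3% of all genes, with a median log2 fold change of -0.06 beside 0.07. From P0 to P5 22 rose and 11 fell, which is 50.8% beside 56.6%. From P5 to P10 14 rose and 29 fell, which is 66.2% beside 61.5%. All these shares lie near the background and are no result about the list.

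Of 12 receptors and genes of cyclic AMP signalling, which act upstream of Cftr, 1 rose and 9 fell from P0 to P10, with a median log2 fold change of -0.42. Of all genes 41% rose and 31.3% fell in this comparison, and the counts of the other roles below stand beside the same shares, with no test of a role against all genes. Pde4b, a phosphodiesterase that breaks down cyclic AMP, was at 9.62 ± 3.27 FPKM (SD, n = 3) in P0, 3.96 ± 0.17 in P5 and 0.26 ± 0.0111 in P10, and its log2 level fell by 3.03 (SE 0.18, adjusted p = 2.57e-07) between P0 and P10. Adcy8, an adenylyl cyclase that makes cyclic AMP, fell by 1.23 (SE 0.10, adjusted p = 1.98e-06). Prkar1a, a regulatory subunit of protein kinase A and the most abundant gene of the role, was at 80.4 ± 1.89 FPKM in P0 and 63.9 ± 1.23 in P10.

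Of 7 genes of calcium and purinergic signalling, which act upstream of Ano1, 2 rose and 4 fell from P0 to P10. Itpr2, a calcium release channel, was at 2.76 ± 0.494 FPKM in P0, 3.41 ± 0.413 in P5 and 12.8 ± 0.342 in P10, and rose by 1.89 (SE 0.10, adjusted p = 1.28e-07) from P0 to P10. Itpr3, its more abundant relative, was at 42.2 ± 3.6 FPKM in P0 and 46.3 ± 1.27 in P10, a log2 difference of 0.13 (SE 0.06, adjusted p = 0.0895).

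Of 13 other chloride channels and exchangers, 6 rose and 5 fell from P0 to P10. Slc26a9, a chloride transporter, fell by 1.15 (SE 0.16, adjusted p = 0.000101), and Clic1, the most abundant of the role, was at 280.1 ± 16.7 FPKM in P0 and 237 ± 11.7 in P10. Of 3 genes listed as other bicarbonate transporters 2 rose from P0 to P10. Among them Slc4a11, which was listed by its family name and is known as a transporter of protons rather than of bicarbonate, went from 3.82 ± 0.78 to 18.5 ± 0.761 FPKM, a rise of 2.03 (SE 0.10, adjusted p = 9.89e-08) on the log2 scale. Of 6 carbonic anhydrases, which interconvert carbon dioxide and bicarbonate, 1 rose and 2 fell from P0 to P10, with Car9 at 236 ± 8.32 FPKM in P0, 309 ± 10.4 in P5 and 103 ± 1.44 in P10.

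Of 6 potassium channels, which let out the potassium that Slc12a2 and the pump bring in, 3 rose and 2 fell from P0 to P10. Kcnk5 rose by 1.25 (SE 0.06, adjusted p = 1.04e-07), and Kcnn4, a calcium-activated channel and the most abundant of the role, rose by 0.76 (SE 0.07, adjusted p = 4.48e-06). Kcne3, a channel subunit, was at 41.6 ± 4.32 FPKM in P0, 48.6 ± 2.55 in P5 and 16 ± 0.50 in P10, and fell by 1.32 (SE 0.07, adjusted p = 1.73e-07).

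Of 8 other cation-chloride cotransporters and their kinases, 4 rose and 2 fell from P0 to P10. Stk39, a kinase that activates Slc12a2, fell by 1.03 (SE 0.06, adjusted p = 2.96e-07), while Slc12a2 itself rose. Of 4 genes listed as sodium-proton exchangers 1 rose and 1 fell. They include Slc9a3r1, which is a scaffold protein and no exchanger, and which did not pass the test.

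Of 3 other sodium pump subunits, 0 rose and 2 fell from P0 to P10. Fxyd3, a regulator of the pump, was at 135 ± 16.5 FPKM in P0 and 49.3 ± 5.98 in P10 and fell by 1.44 (SE 0.10, adjusted p = 7.26e-07). Aqp11 was the 1 tested of 9 other aquaporins and fell by 0.62 (SE 0.07, adjusted p = 1.89e-05) in the same comparison. Of 4 genes listed for the epithelial sodium channel, 2 were tested and 0 passed the limma test from P0 to P10, with 0 at an unadjusted p under 0.05. From P5 to P10 1 of them rose, which was Prss8, a protease that activates the channel, by 0.35 (SE 0.11, adjusted p = 0.0188).

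**Figure D4:**
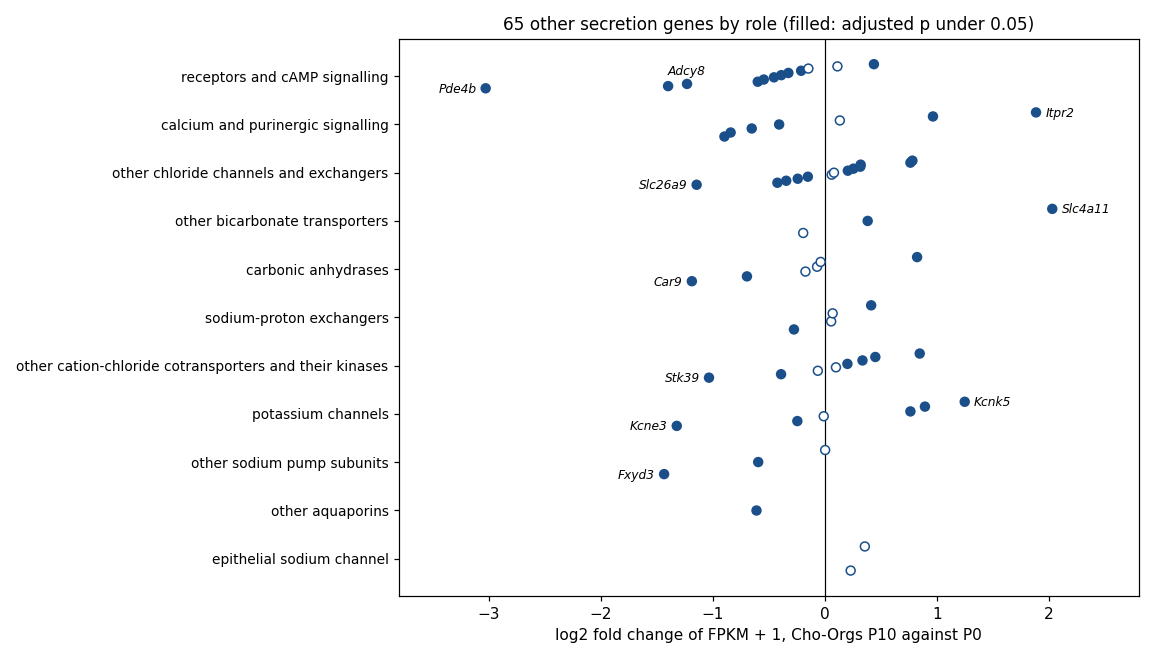
Log2 fold change of FPKM + 1 from Cho-Orgs P0 to P10 for 65 other secretion genes in 11 roles, 1 point per gene, where filled points passed an adjusted p of 0.05 in limma and genes past a log2 change of 1 that the text gives are named. In the cyclic AMP role 9 of 12 fell, where 31.3% of all genes did, and Pde4b lies at -3.03.

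The second comparison asked whether the members differed between Pri-Hep and Hep-Orgs or between passages of Hep-Orgs. Of the 9 members 7 passed the filter on low values, without Cftr and Sctr, and limma with Benjamini-Hochberg adjustment called 0 of 7 in each of the 4 comparisons. For all Hep-Orgs against Pri-Hep 0% of 10986 genes were called, for P5 against P1 0%, for P10 against P5 0.0273% and for P10 against P1 0%. An unadjusted p under 0.05 was met by 0, 0, 1 and 1 members in these comparisons, beside 8.79%, 3.97%, 11.5% and 8.98% of all genes, and limma-voom on the recovered fragments called 0 members. With the replicate block the count of all genes for P10 against P5 went from 3 to 0.

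Atp1b1 and Aqp1 were the highest members of the hepatocyte table. Atp1b1 was between 782 and 818 FPKM over the 12 libraries with a median of 805, and Aqp1 between 509 and 559 with a median of 543. Both ranked among the 48 highest of 31053 genes in every library. The lowest Aqp1 value was in Pri-Hep and the highest in Hep-Orgs P5.

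Ano1 was at 47.6 to 50.9 FPKM and Slc4a4 at 47.6 to 49.2, and these ranges overlapped. Slc12a2 was at 24.8 to 28, Aqp5 at 15.9 to 18.2 and Slc4a2 at 7.38 to 8.41. Aqp5 had the largest fold change among the members, from 18.2, 17.1 and 17.8 FPKM in Hep-Orgs P5 to 16.7, 16.6 and 15.9 in P10. These libraries did not overlap, and the log2 fold change of -0.11 (SE 0.03, adjusted p = 0.243) did not pass the test.

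Cftr was at 0.0682 to 0.162 FPKM, which is 9 to 24 fragments, and Sctr was at 0 in 11 libraries with 1 fragment in Hep-Orgs P5 replicate 1. Fitted in limma without the filter, neither passed the test in any of the 4 comparisons. The log2 fold changes of Cftr were -0.0228 to -0.00247 (adjusted p 0.921 to 1.0), and those of Sctr -0.0123 to 0.0123 (adjusted p 0.812 to 1.0), on the same scale that understates changes of low genes. The order of levels was Atp1b1, Aqp1, then Ano1 and Slc4a4, which overlapped, then Slc12a2, Aqp5, Slc4a2, Cftr and Sctr.

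Set beside Cho-Orgs without a test, in tables that were scaled separately, Aqp5 was at 17.1 ± 0.68 FPKM (SD, n = 12) in the hepatocyte table and at 742 ± 18.4 (n = 3) in Cho-Orgs P10. The ratio of Aqp5 to Aqp1 within a library was 0.0293 to 0.0328 in the hepatocyte table and 2.03 to 13.6 in Cho-Orgs. The ratio of Slc4a4 to Slc4a2 was 5.83 to 6.53 and 1.28 to 2.75. Medium, cells of origin and table differ together between these libraries and cannot be told apart.

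The third comparison set P0 Hep-Orgs of different shape side by side, with 1 library each, so there is no replicate check and no test. Atp1b1, Slc12a2 and Ano1 were lower in grape-like than in round-like organoids, and both aquaporins were higher. After adding 1 to each FPKM, 5 of 8 members passed a log2 ratio of 1 between grape-like and round-like, 2 higher and 3 lower, where 21.8% of 12595 genes did, 12.9% higher and 8.82% lower. Between grape-like and intermediate it was 5 of 8, 2 higher and 3 lower, beside 16.9%, 9.71% and 7.15%. Between intermediate and round-like it was 2 of 8, Cftr higher and Ano1 lower, beside 6.39%, 3.85% and 2.54%. The exact 95% intervals below are for the ratio without an added value and cover counting error only.

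Atp1b1 was at 57.8, 256 and 339.6 FPKM in this order of shapes (grape-like first, round-like last), and grape-like over round-like gave a log2 ratio of -2.56 (95% interval -2.59 to -2.52). Slc12a2 was at 15.5, 58.3 and 72.4 FPKM, with a log2 ratio of -2.23 (95% interval -2.28 to -2.18). For both, the intermediate library lay close to the round-like one, with log2 ratios of -0.41 and -0.31.

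Ano1 was at 2.92, 5.4 and 20.7 FPKM, with grape-like over round-like at -2.83 (95% interval -2.94 to -2.72) on the log2 scale, and here the intermediate library lay nearer to the grape-like one. Cftr was at 0.471, 4.45 and 1.13 FPKM, from about 146, 1395 and 352 fragments. Cftr was highest in the intermediate library, with a log2 ratio to the round-like one of 1.98 (95% interval 1.81 to 2.15). Between grape-like and round-like its log2 ratio was -1.26 (95% interval -1.55 to -0.98), or -0.53 with 1 added to each FPKM.

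Slc4a2 was at 20.3, 22.5 and 25 FPKM, with grape-like over round-like at -0.30 (95% interval -0.35 to -0.26) on the log2 scale, the smallest among the members. Slc4a4 was at 12.2, 19.8 and 24.5 FPKM, with a log2 ratio of -1.01 (95% interval -1.06 to -0.96).

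The aquaporins ran against the other members. Aqp1 was at 66.3, 31 and 23.3 FPKM, with grape-like over round-like at 1.51 (95% interval 1.44 to 1.58) on the log2 scale. Aqp5 was at 15.8, 2.87 and 2.16 FPKM, with a log2 ratio of 2.87 (95% interval 2.66 to 3.07).

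Several lists of markers of other liver cells moved with these differences. The 10 Kupffer cell markers summed to 4470, 1197 and 770.4 FPKM in the same order of shapes, and none was at 0. The 10 markers of sinusoidal endothelium summed to 188, 109 and 46.6, with Pecam1 at 11.2, 4.7 and 2.21, and the 10 stellate cell markers to 1404, 364 and 316. The 10 cholangiocyte markers went the other way, at 131, 789 and 978, and the 10 hepatocyte markers were at 6037, 10401 and 1404. The 9 leukocyte markers with a row summed to 628, 801 and 858. In the intermediate and round-like libraries these sums were mostly Ly6d, at 658 and 789 FPKM. In the grape-like library Laptm5 was the highest at 323. Cd79a was at 0 in the grape-like library, and Cd79a, S100a8 and S100a9 were at 0 in the round-like one. The leukocyte sums are therefore not read as a rise of the list. The 10 proliferation genes summed to 287, 307 and 603. Their part in the differences of the members was not tested.

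**Figure D5:**
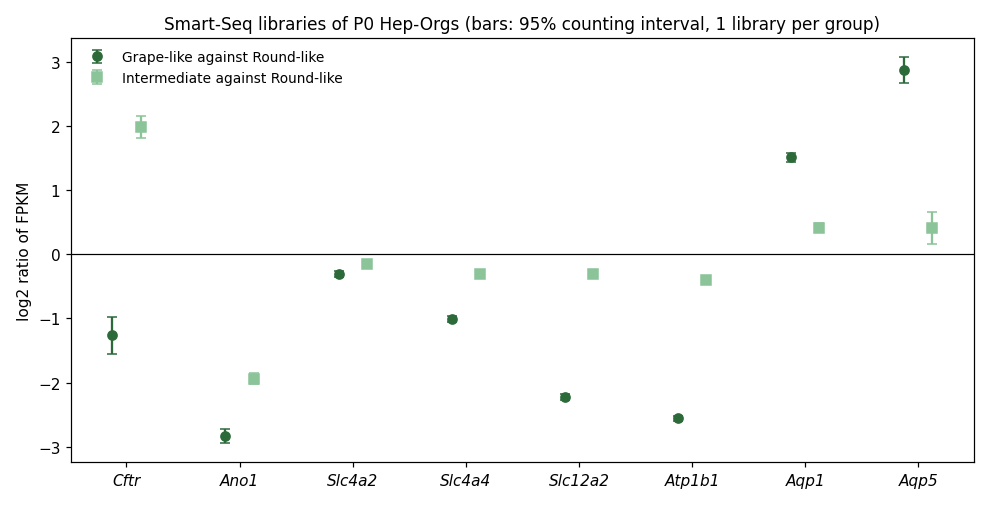
Log2 ratio of FPKM to the round-like library for 8 members in the grape-like and intermediate Smart-Seq libraries, with exact 95% counting intervals and 1 library per group. In the grape-like library Atp1b1, Slc12a2 and Ano1 lie at -2.56, -2.23 and -2.83, and Aqp1 and Aqp5 at 1.51 and 2.87.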

How the data were processed

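Pri-Hep, Hep-Orgs and Cho-Orgs were sequenced as 12 and 9 bulk RNA libraries and 3 single libraries with Smart-Seq. The deposited values are FPKM per gene, made by the authors. The submitters' processing notes name featureCounts 2.0.3 and edgeR 3.40.2 with mouse build mm10, and the aligner is not given in the sources used here. Whether genes that share reads with a copy were counted apart is also not given.

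FPKM were analysed in limma 3.58.1 (R 4.3.3) on log2(FPKM + 1), keeping genes with an FPKM of 1 or more in 3 or more libraries, with 1 fit per bulk table, and Benjamini-Hochberg adjusted p under 0.05. Tables and figures were made with Python 3.11.15, pandas 2.3.3, scipy 1.17.1 and matplotlib 3.10.9. In the hepatocyte table FPKM and gene length gave whole fragments for 100% of values (within 0.05 of a fragment). For the other tables the depth was estimated from steps between low values, and depth and fragment numbers are approximate. In the library with the poorest match 28.3% of low values were whole in Cho-Orgs and 16.5% in Smart-Seq. Whole here means within 0.03 of a fragment. The limma fit was also run on simulated data with the same spread in every group, and the results of that run are not reported here. Smart-Seq ratios have exact Clopper-Pearson 95% intervals, which cover counting error only.

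Same-numbered libraries did not deviate together. Taken as deviations from group means, their correlation had a median of -0.00626 over 9 pairs in Cho-Orgs and -0.00155 over 18 pairs in the hepatocyte table. Per the study's figure captions the numbers mark mice, which would pair libraries across passages. The fit without the block stayed the reported one as planned.

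The members and all gene lists (123 companion genes in 11 roles and 8 lists of 10 marker genes) were chosen with earlier results of these data known. Named companions are the most abundant of each role and those past a log2 change of 1 from P0 to P10, apart from some that are not reported here. Genes of like profile are the 3 with the smallest distance, for members whose profile had an SD of at least 0.3. Cyp2e1 was named after its values were seen. Alternatives were a pseudocount of 0.1, other filters, TPM, median-ratio size factors, a replicate block, fits of the groups compared, limma-voom on fragments and leaving out libraries.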

Additional observations from a re-analysis of the deposited data

Results flagged for a closer look

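In Cho-Orgs 5 of 8 members changed differently in the later interval (P5 to P10) than in the earlier one (P0 to P5). The limma test was of the difference itself. Of all genes 48.7% passed the same test, 20.9% higher and 27.8% lower, so the count is no result about the members. The later log2 change minus the earlier one was -3.53 for Cftr (adjusted p = 0.000291), -2.49 for Aqp5 (adjusted p = 5.65e-07), -2.11 for Aqp1 (adjusted p = 0.000494), 1.10 for Slc12a2 (adjusted p = 4.59e-05) and 0.68 for Slc4a2 (adjusted p = 0.00151). Both intervals share the P5 libraries, so an error in them moves the 2 changes in opposite directions.

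Aqp1 was higher in every Cho-Orgs P10 library than in every P5 library (log2 fold change 0.29) and lower in every Hep-Orgs P10 library than in every P5 library (-0.05). The log2 fold changes differed by 0.34. That difference was not tested, since the tables were scaled separately, and neither change passed its own test. In Hep-Orgs the highest P10 value was 541.5 FPKM and the lowest P5 value 543.5. All members were screened for such opposite separation and Aqp1 alone met it, with no share of all genes given.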

How the results depend on the processing

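Over the alternatives 4 to 6 members were called from P0 to P5, 5 to 7 from P5 to P10, 5 to 7 from P0 to P10 and 5 to 6 between the intervals in Cho-Orgs, and none in the hepatocyte table. Between grape-like and round-like organoids 5 to 7 members passed a log2 ratio of 1, beside 21.8% of all genes in the main setting. Of the single Smart-Seq values over the alternatives, 41 were scored as moved and 31 as the same. The counting intervals given for the Smart-Seq ratios do not cover such changes of setting. Of the single values in Cho-Orgs, 380 kept direction and call, 9 lost and 15 gained a call, and 4 turned. Atp1b1 from P0 to P10 turned with median-ratio size factors (-0.0442). Leaving out libraries gave -0.52 to 0.17 for Cftr from P0 to P5, with the positive values without replicate 3 (0.11) or P0 replicate 3 alone, and -0.0655 to 0.22 for the interval difference of Ano1. The calls lost were those of Slc4a2 from P0 to P5 and from P0 to P10, and the calls gained were of Slc4a4, Atp1b1 and Aqp1. Leaving out single P0 libraries was chosen after seeing the data.

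Of the values of hepatocyte libraries 12 near 0 turned and 289 did not. All did so when a replicate was left out. Log2 changes then ranged over -0.00246 to 0.0242 for Atp1b1 against Pri-Hep, and for P5 against P1 over -0.0156 to 0.0364 (Ano1), -0.00289 to 0.0351 (Aqp1), -0.0151 to 0.0298 (Aqp5), -0.0107 to 0.0244 (Atp1b1), -0.000471 to 0.0219 (Slc12a2) and -0.0163 to 0.0546 (Slc4a2). For P10 against P5 they ranged over -0.0128 to 0.0515 (Ano1) and -0.0177 to 0.00549 (Slc4a4), and for P10 against P1 over -0.0135 to 0.0513 (Ano1). The count of all genes called went from 0 to 1 without the filter and 12 with limma-voom on fragments for Hep-Orgs against Pri-Hep, and from 0 to 1 without the filter and 1 with TPM for P5 against P1. For P10 against P5 it went from 3 to 0 without the filter and in a fit of those groups alone, and to 28 with limma-voom, and for P10 against P1 from 0 to 29 with limma-voom. Leaving out replicates gave 0 to 2 for P5 against P1 and 0 to 2 for P10 against P5. The causes were not tested.

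With the replicate block the adjusted p of Slc4a4 from P0 to P10 was 0.0229 and the count of all genes for Hep-Orgs P10 against P5 was 0. The block changed no other call of a member.

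A fit of the groups compared has no meaning for all Hep-Orgs and for the intervals and was not run. Sctr and, in the hepatocyte table, Cftr rest on few fragments. Values of Sctr without single P0 libraries or with the block were chosen after seeing the data and kept direction and call.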

Other observations

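Among the cholangiocyte markers in Cho-Orgs, Krt7 was at 248 ± 19.6 FPKM (SD, n = 3) in P0, 689 ± 24.9 in P5 and 919.7 ± 5.4 in P10, and Epcam was at 451 ± 32.2, 489.8 ± 10.1 and 259 ± 3.44. The hepatocyte factor Hnf4a was at 64.3 ± 10.6, 60.9 ± 2.33 and 56.4 ± 2.1, while Alb fell far below its P0 level. The 10 Kupffer cell markers summed to 0.307 to 3.87 FPKM over the Cho-Orgs libraries and the 10 red cell markers to 0 to 0.219. The stellate list was at 60.8 to 75.7 FPKM in P0 and 0.182 to 0.239 in P10, mostly through Reln, and the leukocyte list was at 1508 to 1919 FPKM in P0 and 379 to 415 in P10, mostly through Ly6d, with the leukocyte gene Ptprc at no more than 0.0523.

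In the hepatocyte table these lists summed to 2.35 to 2.59 (Kupffer cells), 0.139 to 0.243 (9 listed red cell genes), 6.62 to 7.01 (stellate cells) and 94.9 to 99.96 FPKM (leukocytes) in Pri-Hep. The ratio of chi-square to degrees of freedom between 2 libraries had a median of 2.24 within groups, 2.57 between Pri-Hep and Hep-Orgs and 2.57 between Hep-Orgs groups.

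Of the most abundant companions not described above, Slc4a7, a sodium-bicarbonate cotransporter, was at 12.4 ± 1.87 FPKM in Cho-Orgs P0 and 10.6 ± 0.026 in P10. Slc9a3r1, a scaffold protein that binds Cftr, was at 78.7 ± 9.88 and 81.4 ± 0.643. Wnk1, a kinase upstream of Stk39, was at 22.3 ± 0.769 and 23.9 ± 0.0951, and Prss8, a protease that activates the epithelial sodium channel, at 33.3 ± 6.0 and 38.9 ± 0.969. None of these 4 passed the limma test from P0 to P10.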
